A study of Mus musculus with 63 samples.

Results

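CDK8 was deleted from small intestinal organoids whose only CDK19 was kinase dead, and RNA-Seq libraries of the deleted organoids were compared with those of the undeleted ones. The comparison rests on 6 samples of the 63 in the series, 3 treated with 4-hydroxytamoxifen (4-OHT) and 3 with ethanol (EtOH), taken as the libraries of 1 organoid line in the table that holds them. Both arms were VillinCreERT2, Cdk8 fl/fl and Cdk19 ko/D173A on a C57BL/6 background, so one Cdk19 allele carried the kinase-dead D173A change and the other was deleted in the EtOH controls too. The EtOH arm received 0.001% EtOH and kept CDK8, whereas the 4-OHT arm received 100 nM 4-OHT for 24 hours, which activates a Cre recombinase driven by the Villin promoter in epithelial cells, and both were collected at day 7. The columns of this line carry a line number and no genotype. They were placed in these groups because no other group of that table was left for them, and the 3 columns of an arm could not be tied to single labels.

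CDK8 and its paralog CDK19 are alternative kinases of the Mediator kinase module, which also holds cyclin C, MED12 and MED13 and which docks on the core Mediator complex between enhancers and RNA polymerase II. In the intestinal crypt, stem cells give rise to absorptive enterocytes and to the secretory lineage, that is, Paneth, goblet, enteroendocrine and tuft cells, with ATOH1 as the transcription factor that commits most secretory cells. The comparison addresses what happens to transcription when the last catalytically active Mediator kinase is removed while a CDK19 protein without activity remains.

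The libraries held between 25250188 and 32909565 counts. In the epithelium list (Epcam, Cdh1, Vil1 and other defining genes), 0 of 10 genes were called, and the summed level lay between 11730 and 12130 CPM (counts scaled to the size of the library) in EtOH and between 11470 and 12570 CPM in 4-OHT. The 15 immune markers summed to between 6.04 and 6.85 CPM in EtOH and between 8.06 and 9.83 CPM in 4-OHT, and the 15 mesenchymal and endothelial markers to between 14.3 and 15.8 and between 10.6 and 17.7 CPM. Ptprc, the pan-leukocyte marker, had at most 12 counts in a library. Csf1r, a macrophage receptor gene, was the 1 immune gene of 4 tested that was called, from 54, 13 and 19 counts in EtOH to 102, 92 and 95 in 4-OHT, and the call was lost without any single library other than EtOH library 1. Of 3 mesenchymal and endothelial genes tested, Vim, vimentin, fell by 0.84 on the log2 scale, a call lost in a fit of both lines. Of 4 pancreatic and gastric genes tested, Ctrb1, chymotrypsinogen, rose by 2.20 and Tff2 fell by 2.26 on the log2 scale, the latter call being lost without EtOH library 1 or 4-OHT library 3. The part that these cells play in the results below was not tested. EtOH libraries 2 and 3 were the closest pair, with a chi-square per degree of freedom of 2.98 against at least 14.5 in every other pair of the same arm in this line, so all 6 libraries differed by more than counting noise and were kept as separate samples.

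The libraries of an arm were not alike. On the second principal component, with 15% of the variance, EtOH library 1 was at 16.8 against -9.5 and -8.7 in the other EtOH libraries, and the 4-OHT libraries were at 29.2, -1.4 and -26.4. The third 4-OHT library held many transcripts of liver cells. The 25 genes of a hepatocyte list, written after this had been seen, summed to 1550 CPM there, against 34.8 and 31.6 CPM in the other two 4-OHT libraries and between 11.7 and 13.1 CPM in EtOH. Alb, which encodes serum albumin, had 20715 counts in that library, 564 and 580 in the other 4-OHT libraries and between 127 and 153 in EtOH. All 25 hepatocyte genes reached 50 counts in the third 4-OHT library, and at most 3 of 25 did so in any other library of the line. Without the third library, 7 of 12 hepatocyte genes tested were called higher after 4-OHT, against 5.43% of all genes. The list was chosen from these data and its other genes had too few counts to be tested, so that count is a description and not a test. Without that library Alb was higher by 1.97 on the log2 scale, and it was higher by 1.6 in the line labelled Cdk19 ko/ko. The third library also had 17 counts over the Y-linked genes Ddx3y, Uty, Kdm5d and Eif2s3y, against at most 3 in the others, in a line whose 6 libraries all expressed Xist (9112 to 20084 counts). Results are therefore given with this library and, where its removal matters, without it.

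A gene is called here when its adjusted p is under 0.05 by edgeR's quasi-likelihood test with Benjamini-Hochberg adjustment and its fold change is over 1.5. Of 15457 genes tested, 935 were higher (6.05%) and 966 were lower (6.25%) after 4-OHT, while the median log2 fold change of all genes was 0.005. Without the third 4-OHT library 858 genes were higher (5.43%) and 1026 lower (6.5%), and these included 782 of the 935 and 829 of the 966. Fewer cells of a type and less RNA per cell cannot be told apart in such bulk libraries, and CDK8 deletion cannot be told apart from exposure to 4-OHT or Cre activity within this line. Nothing in the labels says that the 3 libraries of an arm came from separate cultures or mice, so p-values measure the spread between these samples.

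The targeted gene did not check the deletion. Cdk8 had 2019, 1993 and 1969 counts in EtOH and 2008, 2166 and 1549 in 4-OHT, a log2 fold change of 0.01 ± 0.07 (SE) with an adjusted p of 0.934 by edgeR. The counts are summed over whole genes, so removal of the exons between the loxP sites need not lower them, and an amino acid change such as D173A is not visible in them. Cdk19 was at 29.4 ± 0.97 CPM in EtOH and 25.4 ± 1.6 CPM in 4-OHT (SD, n = 3), with an adjusted p of 0.0787 by edgeR. Of the 6 module genes tested, 0 were called, and 0 of 25 core Mediator genes were called, with medians of 0.003 and -0.07 on the log2 scale. Among 23 genes of the SWI/SNF chromatin remodelling complex, Bcl7a, a subunit gene, was lower by 0.63 on the log2 scale, a call that was lost without the first 4-OHT library, and the other 22 were not called.

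Of 14 transcription factors listed for secretory fate, 8 were lower, 0 were higher and 6 were not called, and their median log2 fold change was -0.70. Atoh1 was among those not called. Atoh1, on chromosome 6, had 692, 724 and 698 counts in EtOH and 683, 548 and 486 in 4-OHT. The arms overlapped, and the log2 difference of -0.22 ± 0.11 (SE) did not pass the test (adjusted p = 0.188, edgeR). Bhlha15 (MIST1), a factor of secretory cell maturation, had 622, 792 and 748 counts in EtOH and 139, 195 and 130 in 4-OHT and fell by 2.14 ± 0.12 on the log2 scale. Pou2f3, the master regulator of tuft cells, fell from 183, 185 and 201 counts to 38, 41 and 37. Spdef, which acts in goblet and Paneth cell maturation, fell by 0.67, Sox9, required for Paneth cells, by 0.86, Neurog3, the enteroendocrine commitment factor, by 1.54, Insm1 by 0.73 and the secretory capacity factor Creb3l1 by 1.04 on the log2 scale. Gfi1 and Foxa1 had log2 differences of -0.24 and -0.25 and were not called either, and the other genes not called lay between -0.56 and 0.23.

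Most secreted products of Paneth cells were lower, while lysozyme was higher. Of 20 Paneth secreted genes tested, 15 were lower and 2 were higher, with a median of -1.40. Ang4, an antimicrobial ribonuclease, had 7019, 6869 and 6887 counts in EtOH and 1352, 1512 and 1433 in 4-OHT. The arms were far apart, a fall of 2.18 ± 0.10 (SE) on the log2 scale with an adjusted p of 3.34e-07 by edgeR. Mmp7, the protease that activates defensins, fell by 1.94, and Itln1, which encodes a lectin, by 1.42. The alpha-defensin genes share near-identical sequences, so their separate counts are uncertain, and each of the 9 defensins called was lower, among them Defa24 by 1.70 and Defa20 by 2.18. Lyz1, the Paneth cell lysozyme, went the other way, with 14898, 13446 and 12746 counts in EtOH and 24759, 24686 and 22126 in 4-OHT. Its log2 rise was 0.89 ± 0.09 (SE), with an adjusted p of 0.000118 by edgeR. The antimicrobial lectin gene Reg3b was higher too, by 1.04.

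Of 18 further Paneth cell genes, 6 were lower and 2 were higher. Wnt3, the Wnt ligand that Paneth cells supply to stem cells, had 190, 193 and 210 counts in EtOH and 68, 62 and 49 in 4-OHT, a fall of 1.65 ± 0.15 (SE) on the log2 scale. Mptx1, a pentraxin gene, fell by 3.48, and the lipase gene Pnliprp2 by 2.12. Nrn1, a gene listed among Paneth markers, rose from 4, 7 and 9 counts to 1593, 1693 and 1510. It rose most among called genes with separate arms, more than 3 counts in some library of each arm and a mean of at least 50 in the higher one.

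Goblet cell genes were mixed. Of 19 tested, 6 were lower and 2 were higher, with a median of -0.48. Muc2, the main secreted mucin, was at 560 ± 101 CPM in EtOH and 470 ± 89 CPM in 4-OHT (SD, n = 3), and its arms overlapped. Tff3 differed by -0.48 on the log2 scale and was under the fold threshold. Spink4 fell by 0.93, Guca2a, the guanylin gene, by 0.85 and Agr2, a disulfide isomerase for mucin folding, by 0.60, a call lost without the first or the second 4-OHT library. Zg16, which encodes a bacteria-binding lectin of mucus, had 7659, 7559 and 7766 counts in EtOH and 18597, 19907 and 16667 in 4-OHT and rose by 1.35, and the chloride channel regulator gene Clca1 rose by 0.90.

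Tuft cell genes were lower with few exceptions. Of 23 tested, 21 were lower and 1 was higher, with a median of -1.955 on the log2 scale, and 1 of those lower, Gnat3, had at most 3 counts in each 4-OHT library. Dclk1, the classical tuft cell marker, had 458, 443 and 493 counts in EtOH and 98, 133 and 83 in 4-OHT, a fall of 2.08 ± 0.13 (SE). Trpm5, the taste-transduction channel, fell from 354, 320 and 424 counts to 62, 86 and 69, and the transcription factor gene Spib fell by 2.37 and Rgs13 by 2.93. Hpgds, a prostaglandin synthase gene, was the 1 gene called higher, by 0.61, and that call was lost with upper quartile scaling and without EtOH library 2, EtOH library 3 or 4-OHT library 1.

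Enteroendocrine genes changed in both directions. Of 14 fate regulators, 8 were lower and 1 was higher, with a median of -0.78, and Pax4 and Fev fell by 1.56 and 1.21. Isl1 was the 1 gene called higher, by 0.80, a call lost with DESeq2, in a fit of both lines and without any library other than 4-OHT library 3. Of 19 hormone and granin genes, 9 were higher, 6 were lower and 4 were not called, with a median of 0.53. Among those that fell, Chgb, chromogranin B, had 16093, 17302 and 16020 counts in EtOH and 4745, 4844 and 3780 in 4-OHT, and Tph1, the rate-limiting enzyme of serotonin synthesis, had 1177, 1460 and 1381 against 410, 441 and 352. Chga fell by 1.11, Tac1, the substance P precursor, by 0.71 and Ghrl, the ghrelin gene, by 1.82. Among those that rose, Sst, somatostatin, had 32, 42 and 33 counts in EtOH and 297, 339 and 298 in 4-OHT, a rise of 3.21 ± 0.16 (SE). Nts, neurotensin, rose by 2.36, Gip by 1.61, Gcg, the precursor of glucagon-like peptides, by 1.21 and Sct, secretin, by 1.36, and none of these arms overlapped. Cck, cholecystokinin, differed by 0.48 and was not called.

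**Figure D1:**
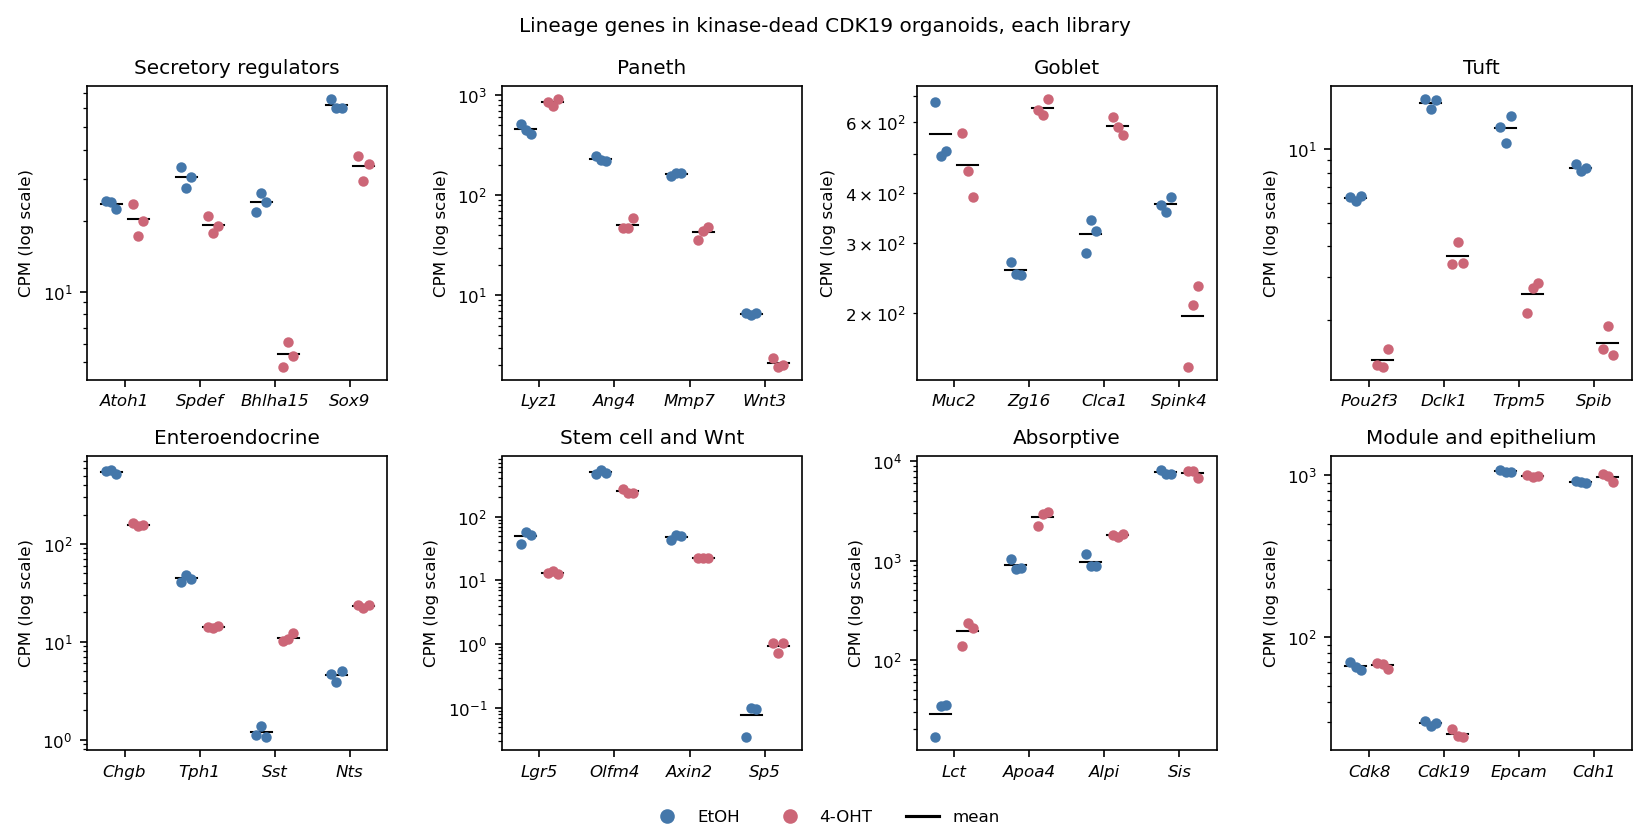
CPM on a log axis for 32 genes in the 3 EtOH libraries (blue) and 3 4-OHT libraries (red) of the kinase-dead line, with horizontal bars at the arm means. Ang4, Pou2f3, Chgb and Lgr5 lay lower in every 4-OHT library, Lyz1, Zg16, Sst and Lct lay higher, and Cdk8 and Sis did not separate the arms.

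Of 20 stem cell genes tested, 12 were lower, 0 were higher and 8 were not called, with a median of -0.65. Of 15 Wnt target and feedback genes 11 were lower, 1 was higher and 3 were not called, with a median of -0.83. Lgr5, the receptor that marks crypt base stem cells, had 1080, 1758 and 1603 counts in EtOH and 377, 443 and 312 in 4-OHT, a fall of 1.89 ± 0.15 (SE) with an adjusted p of 3.37e-05 by edgeR. Olfm4 fell by 1.00, Ascl2, a stem cell transcription factor, by 1.23, Axin2, the feedback inhibitor of beta-catenin, by 1.09 and Myc by 0.74. Sp5, also a direct Wnt target, was the 1 called higher, with 1, 3 and 3 counts in EtOH and 30, 23 and 25 in 4-OHT, and so belongs with the genes at 3 counts or fewer in one arm, which may mark unlike cultures. Of 19 Wnt ligand and receptor genes, 4 were higher and 5 were lower. The 4 were all Frizzled receptor genes, among them Fzd4 (1.22 on the log2 scale), Fzd8 (2.93) and Fzd1 (2.42), whereas the coreceptor gene Lrp5 fell by 0.70. Of 18 Notch pathway genes 4 were lower and 0 were higher. The ligand gene Jag2 fell by 0.77 and Lfng, which modifies Notch receptors, by 1.40, while Hes1, the main Notch target in crypts, differed by 0.055 and was not called.

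Replication and mitosis genes were mostly not called. Of 28 replication genes 3 were lower and 0 were higher, with a median of -0.35, and of 25 mitosis genes 2 were lower and 0 were higher, with a median of -0.34. E2f1 fell by 0.72 and Kif11, a spindle motor gene, by 0.81. Mki67, the proliferation marker, had 5402, 7070 and 6865 counts in EtOH and 4542, 4965 and 2700 in 4-OHT, and its call was lost without 4-OHT library 3, EtOH library 2 or EtOH library 3. The count of replication genes was 5 with upper quartile scaling and lay between 1 and 6 and that of mitosis genes between 1 and 4 when single libraries were left out, the low of the former being without 4-OHT library 1 and both highs without EtOH library 1. Of 22 p53 targets, 1, Aen, was higher.

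Absorptive genes were higher in part. Of 29 uptake genes 17 were higher and 0 were lower, with a median of 0.69. Apoa4, an apolipoprotein of chylomicrons, had 29391, 24786 and 26156 counts in EtOH and 64337, 93770 and 75927 in 4-OHT, a rise of 1.63 ± 0.14 (SE). Apoa1 rose by 1.11, the retinol-binding protein gene Rbp2 by 1.28, the amino acid transporter gene Slc7a8 by 1.19 and Fabp1 by 0.83. Several of these genes are also abundant in liver, and without the third 4-OHT library 14 of 29 were higher, with a median of 0.68. Of 23 brush border genes 5 were higher and 0 were lower, with a median of 0.55, and 10 were higher with DESeq2 and 11 in a fit of both lines, with the replicate block or without the first 4-OHT library. Lct, lactase, had 475, 1042 and 1086 counts in EtOH and 4019, 7421 and 5133 in 4-OHT, a rise of 2.76 ± 0.39 (SE). Alpi, intestinal alkaline phosphatase, rose by 0.89, and Sis, sucrase-isomaltase, was at 7746 ± 403 CPM in EtOH and 7640 ± 679 CPM in 4-OHT (SD, n = 3). Of 25 detoxification genes 6 were higher, and 2 were without the third or without the second 4-OHT library, 3 without the first or the third EtOH library or with no filter on low counts.

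Genes with regional expression were mixed. Of 6 distal small intestinal genes tested 3 were higher and 1 was lower. Fgf15, the ileal hormone that restrains bile acid synthesis, had 453, 575 and 504 counts in EtOH and 42, 43 and 31 in 4-OHT, a fall of 3.64 ± 0.14 (SE) with an adjusted p of 1.45e-07 by edgeR. Slc10a2, the ileal bile acid transporter gene, rose by 1.22 and Slc51b, for basolateral bile acid export, by 1.01. Of 7 colonic markers tested, 3 were higher and 1 was lower, with a median of 0.32. Aqp8, a water channel gene, rose from 16, 29 and 23 counts to 212, 403 and 257, while Car4, a carbonic anhydrase gene, rose by 2.52, the chloride transporter gene Slc26a3 rose by 0.62, a call lost with upper quartile scaling, and Cd177 fell by 0.93.

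**Figure D2:**
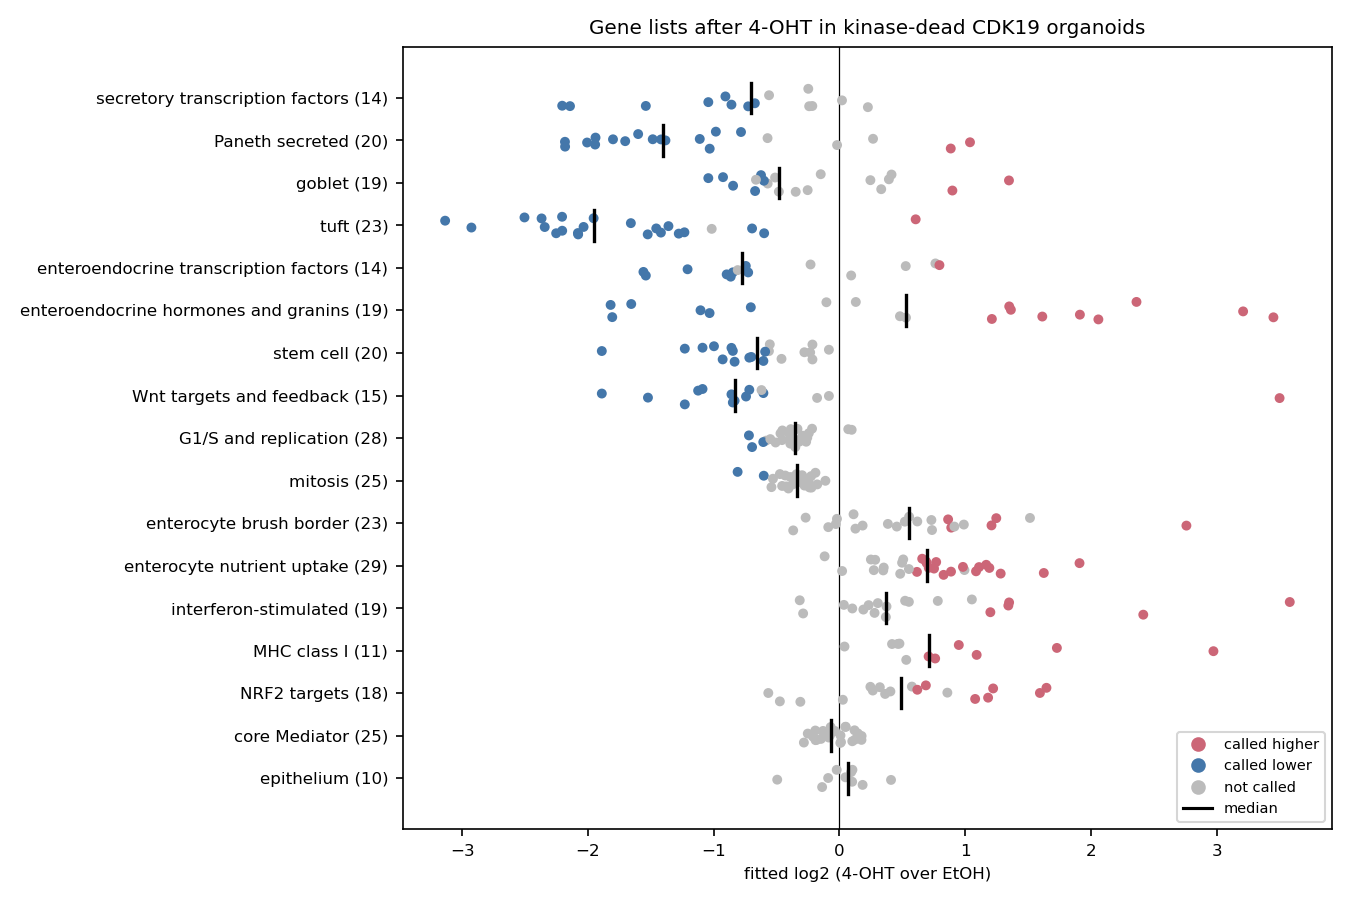
Fitted log2 fold change of 4-OHT over EtOH for each tested gene of 17 lists (number tested in brackets), red where called higher, blue where called lower and grey where not called, with black bars at the list medians. Tuft and Paneth secreted genes lay mostly below 0, nutrient uptake genes mostly above it, and core Mediator genes around it.

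Genes of antigen presentation, the interferon response and antioxidant defence were higher in part. Of 11 MHC class I pathway genes 6 were higher and 0 were lower, with a median of 0.71. Psmb8, an immunoproteasome subunit gene, had 9, 7 and 4 counts in EtOH and 57, 44 and 49 in 4-OHT, and H2-K1 rose by 0.95. Of 19 interferon-stimulated genes 5 were higher and 0 were lower, Oasl2 by 2.42, Ifi44 by 3.58 and Ifit1 by 1.20, the last call being lost without EtOH library 3. H2-Ab1, an MHC class II chain, rose from 2, 4 and 1 counts to 19, 51 and 39. Of 18 NRF2 targets 7 were higher and 0 were lower, and without the third 4-OHT library 6 were higher and 1 was lower. Gstm1, a glutathione transferase gene, had 21294, 27008 and 27405 counts in EtOH and 71208, 79205 and 64562 in 4-OHT. Among metabolic lists 4 of 12 fatty acid synthesis genes were higher, including Scd1 by 1.92 and Me1 by 1.58, and without the third 4-OHT library 3 were higher and 1 was lower. Of 17 fatty acid oxidation genes 4 were higher, including Angptl4, a lipase inhibitor and PPAR target, by 3.93. Cyp4a10, in the same list, had 53 and 95 counts in the first and second 4-OHT libraries and 203 in the third, which holds the hepatocyte transcripts. Its call held without that library and was lost without EtOH library 2 or 3. Without the first 4-OHT library 7 fatty acid oxidation genes were higher, and 2 with at least 10 counts in every library. Of 20 ER folding genes 0 were called and of 22 sterol synthesis genes 1 was higher, Insig1, a count of 0 with upper quartile scaling or without EtOH library 1 or 4-OHT library 2 and of 2 without 4-OHT library 1.

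The counts of the remaining lists stand against 6.05% of all genes called higher and 6.25% called lower. Of 21 genes of EGF ligands and MAPK feedback 1 was higher, Areg, by 0.64, a call lost without EtOH library 1 or 4-OHT library 3. Of 16 immediate early genes 2 were lower, among them Egr1 by 1.06, and 1 was lower without EtOH library 2, EtOH library 3, 4-OHT library 1 or 4-OHT library 2. Of 17 BMP and TGF-beta genes 3 were lower, with Smad6, an inhibitor of BMP signalling, down by 1.44, and 1 was higher, the pseudoreceptor gene Bambi, by 0.97, a call lost without EtOH library 2 or 3. Of 16 genes of regenerative and fetal-like epithelium 4 were higher and 2 lower, and the median was -0.04. Without the third 4-OHT library 3 were higher and 3 lower. Of 10 epithelial chemokine and cytokine genes tested 2 were higher and 0 lower, a count of 4 higher with the replicate block. Il18 and Il33, epithelial cytokine genes, rose by 1.48 and 1.28. Of 22 glycolysis and hypoxia genes 2 were lower, a count of 0 without EtOH library 3 and of 1 without EtOH library 2, 4-OHT library 1 or 4-OHT library 2. Of 18 ATF4 targets and serine synthesis genes 2 were lower, a count of 4 without 4-OHT library 1 and of 1 without any other single library except EtOH library 1.

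The genes with the largest changes included members of the lists. Rises and falls were ranked among called genes whose arms did not overlap. These genes also had more than 3 counts in some library of each arm and a mean of at least 50 counts in the higher arm. The 12 largest rises were in Nrn1, Rec8, Peg3, Ppp1r9a, Slc1a3, Pm20d1, Atp6v0e2, Gsdmc2, Eci3, Rims4, Gng11 and Angptl4, from 7.97 down to 3.93 on the log2 scale. Rec8, a meiotic cohesin gene, had 6, 4 and 10 counts in EtOH and 1308, 1136 and 937 in 4-OHT. Gsdmc2, a gasdermin gene of the intestinal epithelium, rose from 11, 9 and 13 counts to 227, 322 and 219, and its neighbours Gsdmc4 and Gsdmc3, named after their values were seen and similar enough in sequence to share reads, rose by 3.09 and 4.08. Under the same limits the 12 largest falls were in Rps4l, Sh3tc2, Sprr2a2, Sox21, Mtus2, Sp9, Hoxa7, Fgf15, Cnpy1, Dmrta2, Mptx1 and Cbx3-ps8, from 6.31 to 3.31 lower. Rps4l, a gene related to ribosomal protein S4 and hence uncertain in its counts, had 2459, 2177 and 2354 counts in EtOH and 19, 36 and 28 in 4-OHT. Sox21 and Sp9 encode transcription factors. Cnpy1 had 1228, 1571 and 1539 counts in EtOH and 120, 119 and 119 in 4-OHT.

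Genes at 3 counts or fewer in every library of one arm are given apart because they may mark unlike cultures. Leaving out every gene at 3 counts or fewer throughout an arm, whatever its level in the other, left 893 genes called higher and 945 called lower, 1838 of the 1901. Those with a mean of at least 50 numbered 24, of which 21 were near 0 in EtOH and 3 near 0 in 4-OHT. Of the 21, 11 reached the mean through the third 4-OHT library, and they include Trf (transferrin), with 10, 10 and 286 counts in 4-OHT, Hrg with 3, 3 and 226, and Akr1c6 with 2, 0 and 184. These 11 were near 0 in EtOH and low in the other 4-OHT libraries. The other 10 were present in all 3 4-OHT libraries. Gas6, a ligand of TAM receptors, had 1, 0 and 1 counts in EtOH and 284, 445 and 322 in 4-OHT, at least 123-fold higher against a floor of 3 counts per library. Casd1, a sialic acid acetyltransferase gene, had 1, 0 and 0 counts in EtOH and 301, 280 and 201 in 4-OHT, at least 91.4-fold higher. Id4, Paqr9 and Mxra7 were at least 62.5-, 40.8- and 37.4-fold higher, and Tspan6, Amigo2, Zfp182, Sp100 and 5730507C01Rik at least 24.9-fold higher each.

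The 3 genes near 0 in 4-OHT were Hox genes. Hoxa9 had 205, 170 and 177 counts in EtOH and 3, 1 and 0 in 4-OHT, at least 57.5-fold lower. Hoxa10 and Hoxd8 were at least 37.3- and 29-fold lower. Hox genes encode transcription factors whose combination records position along the body axis, and the other members, looked at after these values had been seen, differed along the HoxA cluster. Hoxa3 differed by -0.41, under the fold threshold, Hoxa5 fell by 0.76, Hoxa7 by 3.71 and Hoxa13 from 21, 35 and 25 counts to 2, 0 and 0. The call of Hoxa5 was lost without EtOH library 1, EtOH library 2 or 4-OHT library 2. Of 10 Hox genes with at least 20 counts in some library, 6 were lower and 0 were higher.

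**Figure D3:**
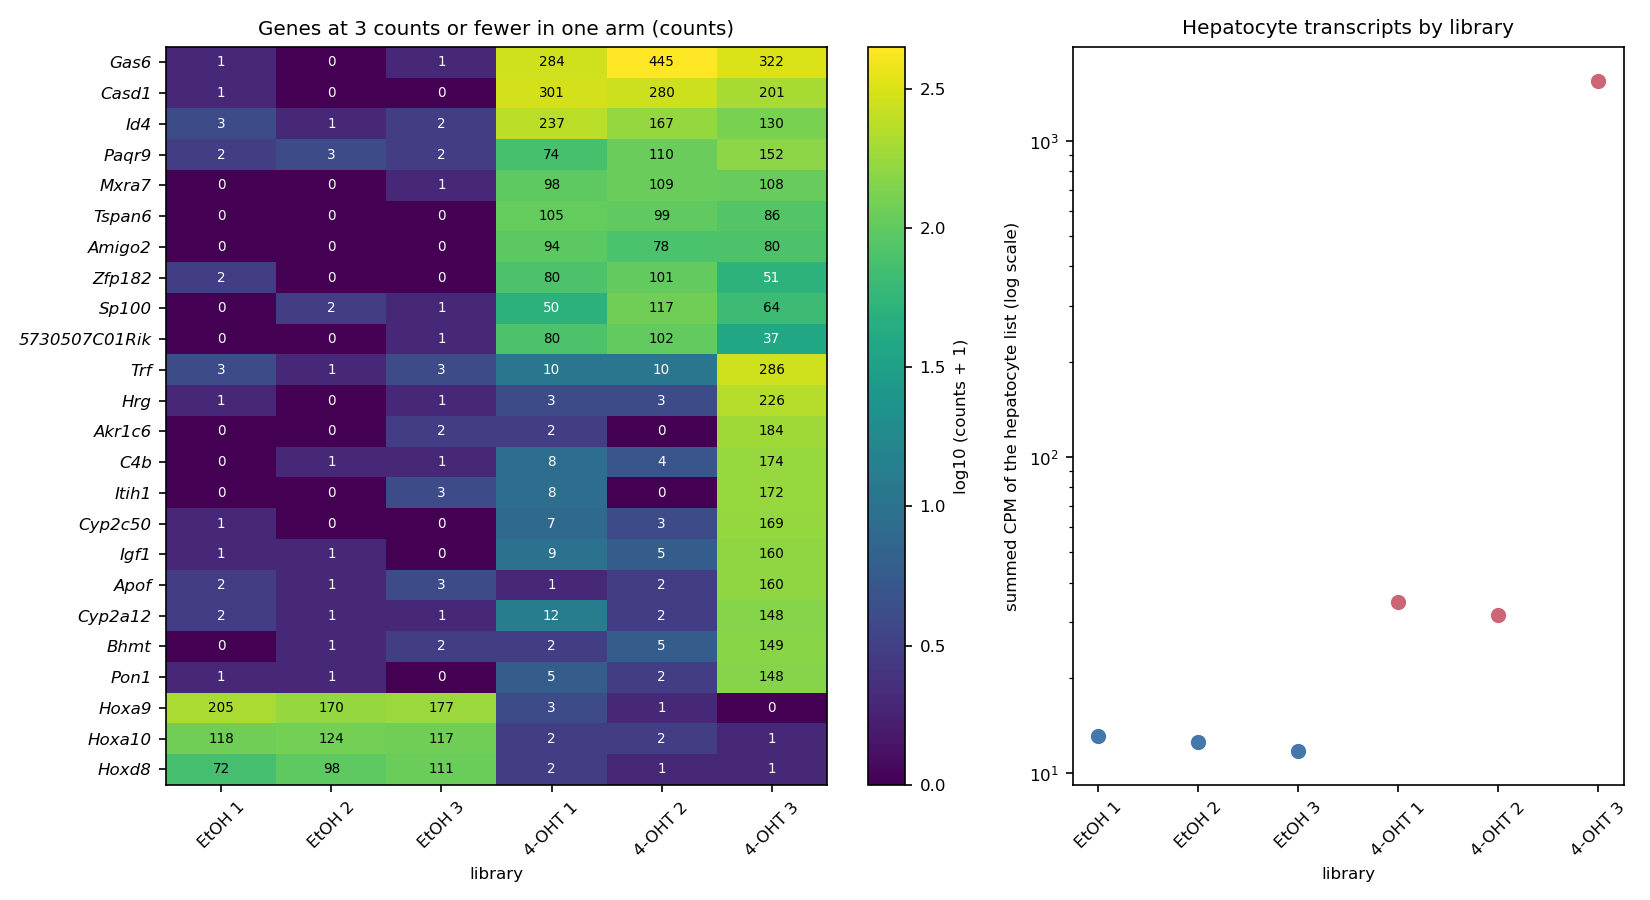
Left, counts in each library for the 24 genes at 3 counts or fewer in one arm, coloured by log10 of counts plus 1. Right, summed CPM of the 25 hepatocyte genes on a log axis. The first 10 genes were present in all 4-OHT libraries, the next 11 mainly in the third, which was at 1550 CPM for the hepatocyte list, and the 3 Hox genes in EtOH libraries.

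Promoters of 11 of the 13 genes near 0 in one arm and present in every library of the other were matched by symbol in RefSeq (GRCm38.p6). They held a median of 21 CpG dinucleotides in 300 bases, with a range of 2 to 46, and 8 of 11 lay above the median of 8 over 27025 genes, taking the window with most CpG for each gene. The 27025 genes were not limited to those expressed in these libraries, so the comparison does not set the 11 apart from other expressed genes. The 3 sequences are shown as examples of these genes, 2 near 0 in EtOH and 1 near 0 in 4-OHT. All 3 hold more CpG than the median of 8, whereas Hoxa9 had 4, Hoxd8 6 and Sp100 2. Each sequence runs from 250 bases before to 50 bases after the annotated start, in the direction of transcription, with CpG in capitals. The Casd1 window is chr6:4600661-4600960 on the plus strand, with 23 CpG, a number reached by 23.5% of promoters. The Amigo2 window is chr15:97247238-97247537 on the minus strand, with 46 CpG, reached by 1.89%. The Hoxa10 window is chr6:52234890-52235189 on the minus strand, with 21 CpG, reached by 27% of promoters. No DNA methylation was measured in these samples.
Casd1: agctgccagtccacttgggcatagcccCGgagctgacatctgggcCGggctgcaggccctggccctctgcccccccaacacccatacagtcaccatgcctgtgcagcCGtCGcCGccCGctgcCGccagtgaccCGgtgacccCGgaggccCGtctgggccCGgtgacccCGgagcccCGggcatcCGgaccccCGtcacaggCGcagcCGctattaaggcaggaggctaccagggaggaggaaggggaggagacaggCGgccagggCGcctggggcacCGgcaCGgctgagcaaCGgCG
Amigo2: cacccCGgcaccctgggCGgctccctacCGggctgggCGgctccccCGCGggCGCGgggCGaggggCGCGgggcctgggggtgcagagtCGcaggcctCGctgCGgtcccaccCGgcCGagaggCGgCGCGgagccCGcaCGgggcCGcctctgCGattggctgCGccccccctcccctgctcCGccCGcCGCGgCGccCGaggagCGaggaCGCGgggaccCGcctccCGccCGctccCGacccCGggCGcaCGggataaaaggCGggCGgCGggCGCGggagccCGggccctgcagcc
Hoxa10: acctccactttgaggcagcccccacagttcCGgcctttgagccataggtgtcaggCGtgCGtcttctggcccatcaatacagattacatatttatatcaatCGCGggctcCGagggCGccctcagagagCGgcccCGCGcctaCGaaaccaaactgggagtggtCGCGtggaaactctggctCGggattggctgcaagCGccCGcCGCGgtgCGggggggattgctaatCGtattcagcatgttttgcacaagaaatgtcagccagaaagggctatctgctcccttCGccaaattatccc

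The nearest comparison in the series is the line labelled VillinCreERT2, Cdk8 fl/fl and Cdk19 ko/ko, here called the null line. It was treated in the same way and collected at day 7, with 3 libraries an arm of 19879016 to 20771513 counts. Cdk19 had 774, 801 and 782 counts in its EtOH libraries and 847, 946 and 949 in its 4-OHT libraries. These counts over the whole gene do not check the absence of CDK19 protein, which rests on the label. The lines differ by more than the Cdk19 alleles. The null line had between 2269 and 2727 counts over the 4 Y-linked genes and at most 10 counts of Xist, so it came from a male and the kinase-dead line from a female, and the lines lie in separate tables. In the null line 1258 of 14066 genes were higher (8.94%) and 1270 were lower (9.03%). Of 15636 genes in a joint fit of the 12 libraries, 766 had a more positive response in the kinase-dead line (4.9%) and 977 a more negative one (6.25%).

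Many Paneth, tuft and stem cell genes were lower in each line. In the null line 17 of 20 Paneth secreted genes, 11 of 16 tuft genes and 12 of 21 stem cell genes were lower, with medians of -1.29, -1.88 and -0.65. Lyz1 differed in direction, rising by 0.89 in the kinase-dead line and falling by 1.62 in the null line, an interaction of 2.51 on the log2 scale. Lgr5 fell further in the kinase-dead line (interaction -1.17), as did Ang4 (-1.02) and Mmp7 (-1.03), while Olfm4 fell further in the null line (0.67). The interaction passed the test for 1 of 23 tuft genes, 5 of 21 stem cell genes and 6 of 21 Paneth secreted genes. Of those tuft genes 16 had enough counts to be tested in the null line alone, so the small number of interactions does not show that the lines responded alike. Atoh1 fell by 0.91 in the null line and differed by -0.22 in the kinase-dead line, a called interaction of 0.70. Wnt3 fell by 1.58 in the null line and by 1.65 in the kinase-dead line.

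Interactions were also called in other groups. Of 28 replication genes 26 were lower in the null line and 3 in the kinase-dead line, and the interaction was positive for 15 of 28 with a median of 0.61. Of 24 interferon-stimulated genes 12 had a negative interaction and 0 a positive one, and 17 of 22 were higher in the null line, with a median of 1.63. Of 18 NRF2 targets 11 had a positive interaction and 1 a negative one, and 6 of 18 were lower and 1 higher in the null line. Gstm1 rose by 1.59 in the kinase-dead line and fell by 0.76 in the null line. Of 29 nutrient uptake genes 12 had a positive interaction and 0 a negative one. Of 19 hormone and granin genes 1 had a positive interaction and 4 a negative one, but 2 of the 20 listed had enough counts to be tested in the null line alone.

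Genes that were on in one arm of the kinase-dead line were mostly silent or steady in the null line. Gas6, Casd1, Id4, Paqr9, Mxra7, Tspan6, Amigo2, Zfp182 and 5730507C01Rik had at most 5 counts in any null library, so their response there was not measurable. Sp100 had 1, 3 and 1 counts in null EtOH and 35, 50 and 32 in null 4-OHT. Hoxd8 had between 288 and 363 counts in all 6 null libraries, and Rec8 between 577 and 870, the level of both arms there being like that of the one arm of the kinase-dead line in which Rec8 was on. Hoxa9 had between 12 and 47 counts in the null libraries and Hoxa10 between 31 and 98.

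**Figure D4:**
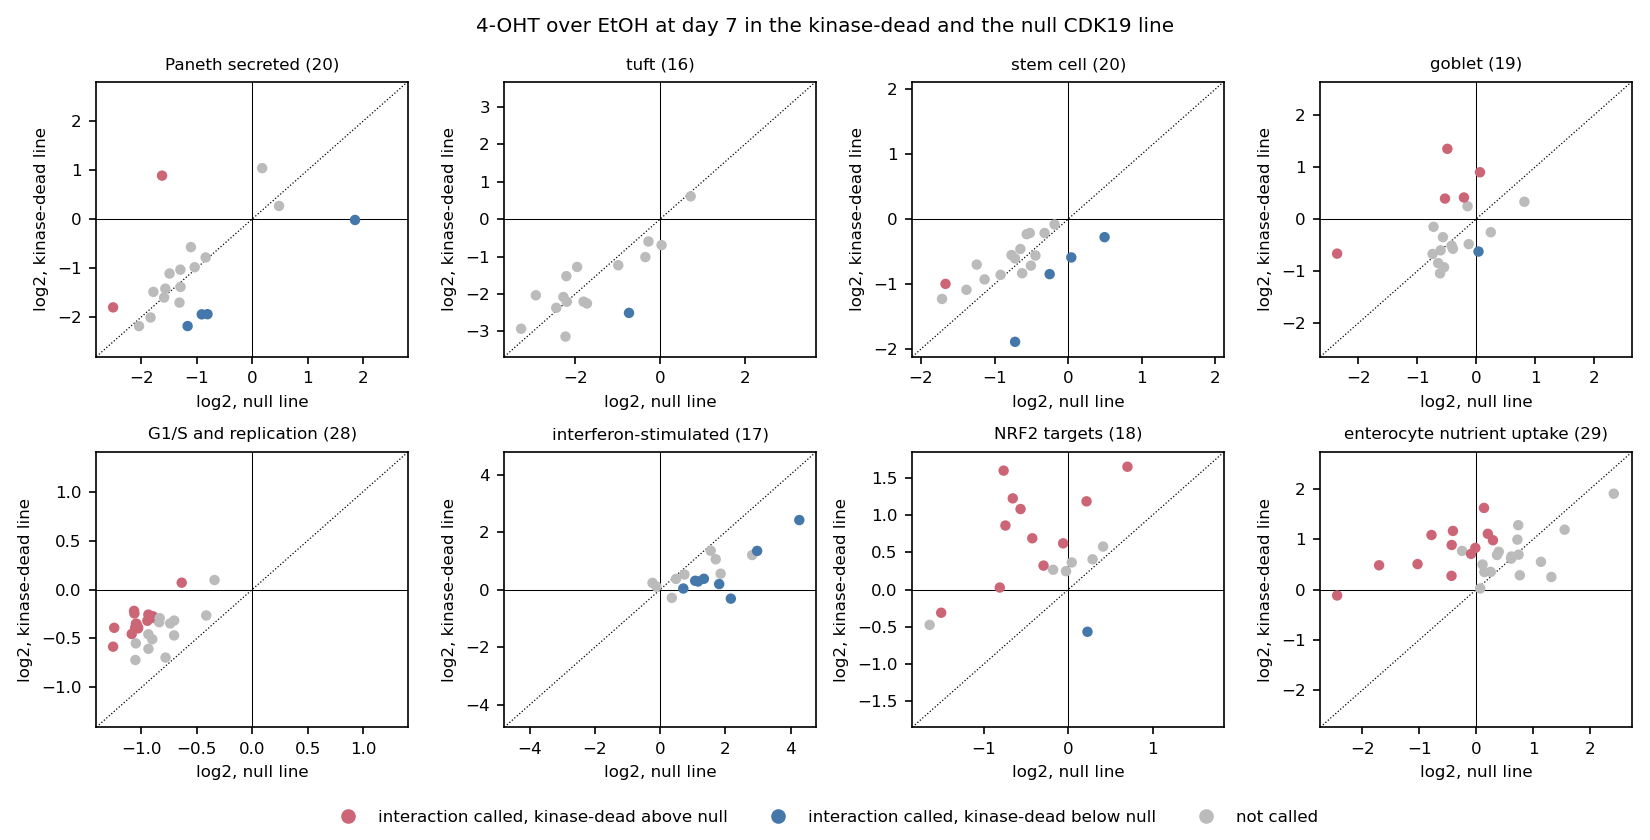
Log2 fold change of 4-OHT over EtOH at day 7 in the kinase-dead line (vertical axis) against the null line (horizontal axis) for the genes of 8 lists tested in both, with the dotted line at equal values and colour where the interaction was called. Tuft and stem cell genes lay mostly below 0 on both axes, replication genes mostly above the dotted line, and interferon-stimulated genes mostly below it.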

How the data were processed

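RNA-Seq libraries were made from polyA RNA and sequenced as 100 bp paired ends. Per the labels and the submitters' processing notes, the authors aligned reads with STAR 2.5.2 to mm10 and counted them per gene with featureCounts of Subread 1.6.3. The strand setting is not given in the sources used here. The deposited values are raw counts per gene, not normalized. Of 63 columns in all tables, 12 were used and 51 were not, 12 of them in the table of the kinase-dead line.

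Counts were fitted in edgeR 4.0.16 (R 4.3.3) with TMM scaling, filterByExpr and the robust quasi-likelihood F test, over the 6 libraries of the line. A gene was called at an adjusted p (Benjamini-Hochberg) below 0.05 with a fold beyond 1.5. The standard error is the log2 fold change divided by the square root of F. The interaction was fitted on 12 libraries. CPM use TMM-scaled library sizes. Scripts were tested on simulated data. Low-count genes have wide errors, and 3 libraries an arm limit precision.

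The genes described are the members of the lists, the 12 largest called rises and falls without overlap of the arms, those near 0 in one arm and the 6 largest called interactions in each direction, with a mean of at least 50 counts in the higher arm. Further genes named after their values were seen are the hepatocyte list, the Hox genes and genes next to those named. Members and lists were chosen with earlier results of these data known. Positions come from GENCODE release M21, which matched 53861 of 54752 gene IDs, and promoters from RefSeq. Alternatives were other filters, scalings, limma-voom (limma 3.58.1), DESeq2 1.42.0, a replicate block and the omission of each library.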

Additional observations from a re-analysis of the deposited data

Results flagged for a closer look

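Among genes whose interaction between the kinase-dead and the null line was called in edgeR and whose mean reached 50 counts in some group, the 6 with the largest positive and the 6 with the largest negative values are given on the log2 scale. Fitted values of similar size that were not called, such as 7.966 for Nrn1 and -6.032 for Mtus2, are not among them. The interaction was 12.802 for Tspan6, 11.272 for Amigo2, 11.219 for Casd1, 8.303 for Mxra7 and 8.296 for Peg3. These 5 fitted values rest on a few counts in the second EtOH library of the null line and were no longer called without it, so they measure no response of that line. Rec8 had an interaction of 7.328 and was well expressed in both arms of the null line.

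The negative interactions were -6.783 for Tph1, -6.099 for Hoxa9, -6.009 for Hoxd8, -5.848 for Sprr2a2, -5.728 for Vnn1 and -5.581 for Hoxa10. Tph1 had 0 counts in all null EtOH libraries and 4, 2 and 4 in null 4-OHT. Vnn1 had 63, 73 and 61 counts in EtOH and 82, 81 and 99 in 4-OHT of the kinase-dead line, against 0 in all null EtOH libraries and 8, 6 and 8 in null 4-OHT. Neither gene had enough counts to be tested in the null line alone, so both values rest on a few null counts and give no size of a difference in response, and Vnn1 was not called in the kinase-dead line (0.51). The 3 Hox genes had counts in both arms of the null line but at most 3 in any 4-OHT library of the kinase-dead line. The sizes of their interactions therefore rest on few counts.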

How the results depend on the processing

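Of 1901 calls in the kinase-dead line, other filters, scalings and tools gave between 1557 and 2332, and the replicate block gave 2197. Same-numbered libraries had correlations of 0.379, 0.185 and 0.095, and those with unlike numbers ran from -0.297 to 0.195. The labels do not tie the numbers to pairs of samples, so whether they pair was not settled. With single libraries left out the counts ran from 1527 to 1986. The interaction count of 1743 became 2118 with the replicate block and ran from 1386 to 2041 without single libraries. The count of genes near 0 in one arm was 24, 87 with a mean of at least 20 counts and 11 with at most 1 count. Those near 0 in EtOH numbered 21, 77 and 11, and those near 0 in 4-OHT 3, 10 and 0. Leaving out single libraries gave 14 to 36, 11 to 33 and 3 to 4 of them, with the low values of 14 and 11 without 4-OHT library 3 and the high values of 36 and 33 without EtOH library 3. Genes that were not called changed sign. Sis ran from -0.062 to 0.053 without single libraries and was above 0 without EtOH library 1 (0.002) or 4-OHT library 3. Cdk8 ran from -0.045 to 0.045 without single libraries and was -0.037 by upper quartile scaling. The cause was not tested. Calls of Isl1 and Peg3's interaction were lost with DESeq2, and that of Cyp4a10 with limma-voom. With at least 10 counts in every library, which removes low genes from the test, 2 Frizzled genes and 0 MHC class II and Wnt target genes were called higher.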

Other observations

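A stretch of chromosome 6 held several of the genes with large rises, and these neighbours were looked at after their values had been seen. Gng11 starts at 4003904, Casd1 at 4600839, Ppp1r9a at 4902917 and Asb4 at 5383386 (GRCm38), so Casd1 lies 597 kb and Ppp1r9a 899 kb from Gng11. Asb4 had 7, 3 and 6 counts in EtOH and 53, 38 and 37 in 4-OHT and rose by 3.06 on the log2 scale. Tfpi2, on the other side of Gng11, rose by 1.49 and also by 1.26 in the null line, with an interaction of 0.23 that was not called, and Bet1, a vesicle transport gene, by 0.68, a call lost without EtOH library 1. Sgce and Peg10, which lie between Casd1 and Ppp1r9a, had at most 2 counts in any library of the kinase-dead line. Pon1, between Ppp1r9a and Asb4, had 5, 2 and 148 counts in 4-OHT and at most 1 in EtOH, so it was carried by the third 4-OHT library, which held the liver transcripts.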
